A study of Mus musculus with 2 samples.

Results

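Fibroblast growth factors (FGFs), their receptors and the Sprouty feedback inhibitors were followed in mouse primary articular chondrocytes before and after mechanical loading. The genes were the receptors Fgfr1, Fgfr2, Fgfr3 and Fgfrl1, the ligands Fgf1, Fgf2, Fgf7 and Fgf18, and the inhibitors Spry2 and Spry4. They were chosen by name, as probes whose listed RefSeq transcript belongs to 1 of these genes. All 10 genes were found among 20660 named genes, with 16 probes between them.

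C57BL/6J mice aged 6 days gave the chondrocytes, which grew for 48 h on fibronectin-coated silicon chambers. One array held RNA taken before loading, and the other held RNA collected 24 h after 30 min of cyclic tensile strain, in which the cells were stretched by 10% at 0.5 Hz, a regime the study treats as excessive loading. No allele or drug differed between the arrays, and the number of mice behind each RNA and whether cells were pooled are not given in the sources used here. Because each time point had 1 array, no replicate error could be had and neither a test nor a p-value is given, and loading cannot be told apart from 24 h of further culture, because an unloaded 24 h culture was not analysed here. Fewer cells of a type and less RNA per cell cannot be told apart either.

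FGFs are secreted ligands that bind receptor tyrosine kinases together with heparan sulfate or a Klotho co-receptor, and the bound receptor signals through the adaptor Frs2 to Ras, Raf and the mitogen-activated protein kinases. Sprouty proteins are made in answer to the signal and dampen it. In cartilage, Fgfr3 is known as a brake on chondrocyte proliferation, and activating mutations of it cause achondroplasia. Fgf18 is known as a ligand that promotes cartilage matrix formation through Fgfr3, whereas Fgf2 and Fgfr1 have been linked to matrix breakdown in articular cartilage.

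Both arrays were one-colour Agilent SurePrint G3 Mouse arrays on the same slide, and values below are the scanner software's processed intensities in arbitrary units. The 75th percentile of intensity, to which each array was scaled, was 466.4 before loading and 466.2 at 24 h, and of 59305 non-control spots 59.1% and 57.7% were well above background. Genes well above background on each of the arrays, 14231 in number, are called detected. Log2 ratios were taken as the 24 h value minus the value before loading, and their within-array error is the scanner software's error of both spots combined, with a median of 0.20 over detected genes. It is not a scatter measured between spots. For bright probes it was the same 0.204 whatever the gene, as for Fgfr1, Fgfr3 and Fgfrl1. Ratios of spots of the same probe varied less, with a median SD of 0.09 over 268 probes printed in at least 8 spots. All 12 chondrocyte markers on the list used were detected, with 7 above 0, 5 below and none past 2-fold. Past 1.5-fold lower was 1, Col11a1, at 107657 and 60799, with 3 spots within 100 µm that were more than 2-fold lower. The summed intensity of the 12 markers was 1331230 before loading and 1323350 at 24 h, of which Col2a1 gave 499543 and 474876. Proliferation markers were lower at 24 h, with 6 of 8 past 2-fold and a median log2 ratio of -1.49, and of 8 hypertrophic chondrocyte markers 3 were past 2-fold lower, with a median of -0.68, 6 below 0 and 2 above, the highest being Mmp13 at 0.49. Of 5 endothelial markers Cdh5, Tek and Emcn were not above background, whereas Kdr was 12774 and 12375 and Pecam1 110.7 and 129.6. All 4 macrophage markers with a probe were detected, 3 of them at log2 ratios from -0.15 to 0.09 and Ptprc at 1.14, from 20.9 to 46.1, with 6 spots within 100 µm that were more than 2-fold higher. Itgam was 25496 and 24759, Csf1r 3646 and 3288, and Adgre1 55.6 and 59.0. In addition, the summed intensity of 5 adipocyte markers, of which 3 were detected, went from 883.1 to 1842. All 8 fibroblast and dedifferentiation markers were detected, with a summed intensity of 164438 before loading and 145931 at 24 h. Of that sum, Col1a2 gave 85821 and 86576. Of the 8, 5 were above 0 and 3 below, and S100a4 was past 2-fold lower at -1.44. Of the 5 osteoblast and 5 skeletal muscle markers listed, 3 each were detected, with summed intensities of 1019 and 1303, and of 1295 and 1213. The part of these other cell types and states in the values of the FGF genes was not tested.

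None of the FGF genes detected on both arrays differed by 2-fold. Of the 10, 8 were detected, and 0 of these 8 were past 2-fold in either direction, against 0.668% of all detected genes past 2-fold higher and 1.83% past 2-fold lower. Past 1.5-fold the count was also 0 of 8, against 3.65% of all detected genes higher and 5.84% lower. The detected members had a median log2 ratio of 0.17, with 6 higher and 2 lower at 24 h, where the median of all 14231 genes was -0.01 and 47.6% were higher. Over the scalings tried, 5 or 6 of the 8 were higher, since Fgf2 turned from 0.04 to -0.02 with the normexp background correction, which was run on the median spot signal.

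**Figure D1:**
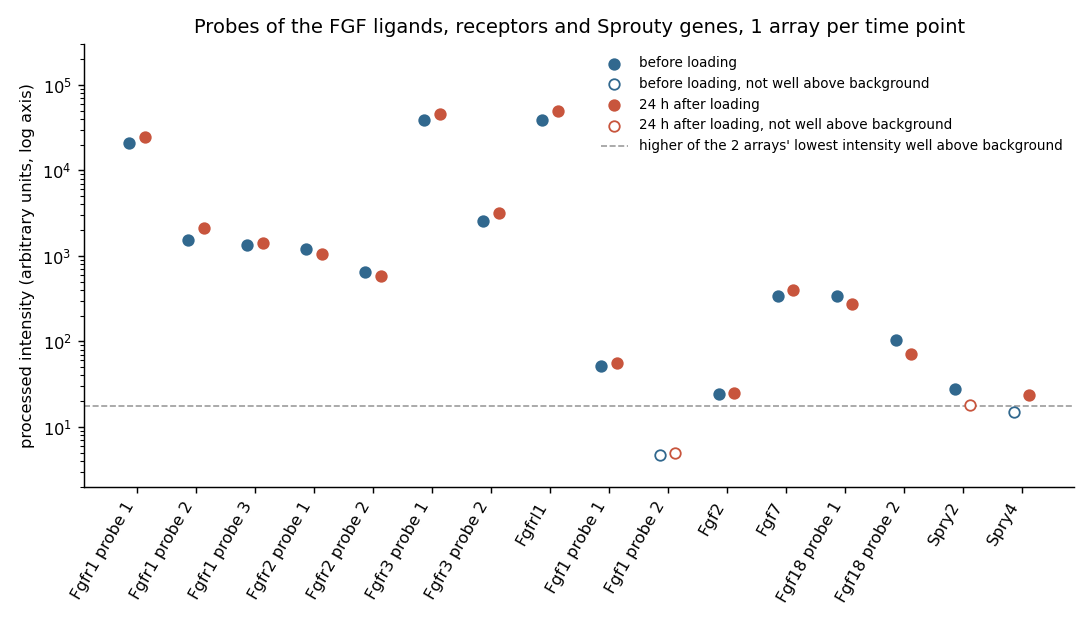
Processed intensity of every probe of the 10 genes before loading (blue) and 24 h after (red), on a log axis, with open circles for values not well above background. Each point is 1 array, and levels are compared within a probe, not between probes. The receptors' points lie well over the dashed detection line at both times, whereas those of Fgf2, Spry2, Spry4 and the second Fgf1 probe lie near or under it.

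The upstream sequences of 3 receptors are shown because Fgfr3 and Fgfrl1 were on the higher side at 24 h and Fgfr2 on the lower side. RefSeq promoter windows of GRCm38.p6 were found for 7 of the 10 genes (Fgfr2, Fgfr3, Fgfrl1, Fgf2, Fgf7, Fgf18 and Spry2), with 2 starts for Fgfr3, and not for Fgfr1, Fgf1 and Spry4. The 120 bases before the start are given 5′ to 3′ on the gene's strand, for Fgfr3 before the first of its starts, and capitals mark the GC box GGGCGG or its reverse complement CCGCCC, with overlapping matches counted.
Fgfr3, chr5:33721604-33721723, plus strand: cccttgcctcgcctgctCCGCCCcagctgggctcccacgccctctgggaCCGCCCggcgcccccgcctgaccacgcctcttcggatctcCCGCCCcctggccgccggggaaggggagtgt
Fgfrl1, chr5:108694109-108694228, plus strand: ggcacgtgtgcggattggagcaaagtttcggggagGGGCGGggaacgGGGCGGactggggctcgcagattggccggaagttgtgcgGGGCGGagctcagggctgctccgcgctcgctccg
Fgfr2, chr7:130266809-130266928, minus strand: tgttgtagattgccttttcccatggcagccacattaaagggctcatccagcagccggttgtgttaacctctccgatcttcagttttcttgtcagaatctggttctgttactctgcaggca

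Each of the printed Fgfr3 and Fgfrl1 stretches held 3 GC boxes, and the Fgfr2 stretch held 0. Over the 250 bases before the start, Fgfrl1 held 4 GC boxes with a GC content of 73.6%, and Fgfr3 held 3 at 66.8% before its first start and 2 at 72.8% before the second. Fgfr2 held 0 at 44.0%. Among the ligands, Fgf18 held 1 at 77.2%, Fgf2 held 1 at 62.4% and Fgf7 held 0 at 43.6%, and the Spry2 window held 0 at 62.4%. A GC box was found in the same window of 32.7% of 32851 RefSeq starts, whose median GC content was 52.4%, and TATAAA or its reverse complement in 12.4% of them and in 0 of the 8 windows of these genes. GC-rich Fgf18 lay with Fgfr2 on the lower side, and AT-richer Fgf7 with Fgfr3 on the higher side. Whether the composition bears on the direction of the differences was not tested.

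Of the 4 receptors on the list, Fgfr1, Fgfr3 and Fgfrl1 were higher at 24 h and Fgfr2 was lower. All were detected, with log2 ratios from -0.20 to 0.34 and a median of 0.23. Their order from the highest difference down was Fgfrl1, Fgfr1, Fgfr3 and Fgfr2, and Fgfrl1, Fgfr1 and Fgfr3 lay within 1 within-array error of each other. These directions held under every scaling tried.

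Fgfrl1, the receptor-like protein that binds FGFs and lacks the kinase domain, gave 38820 before loading and 49000 at 24 h. That was 1.26-fold higher, a log2 ratio of 0.34 ± 0.20 (within-array error), and the largest ratio among the 8 detected members. It was 1.65 times its error, and 25.1% of detected genes differed by more in either direction. The ratio ranged from 0.31 to 0.48 over the alternatives.

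Fgfr3 was measured by 2 probes, both listed for NM_001163215. The brighter went from 39141 to 45194, a log2 ratio of 0.21 ± 0.20, and the other from 2571 to 3161, a log2 ratio of 0.30 ± 0.20. Both probes were higher at 24 h, 1.16-fold and 1.23-fold, and the probes differed from each other by 0.09.

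Fgfr1 had 3 probes for NM_010206. The brightest went from 20763 to 24689, a log2 ratio of 0.25 ± 0.20. The second went from 1550 to 2110, a log2 ratio of 0.45 ± 0.20, which at 2.19 times its error was 1 of 2 member probes past 2 errors. By their brightest probe, 16.4% of all detected genes were past 2 errors. The third went from 1334 to 1399, a log2 ratio of 0.07 ± 0.20, and it had 5 spots within 100 µm that were more than 2-fold higher at 24 h, whose part in its value was not tested. All 3 probes were thus on the higher side, but they spanned 0.38, against a median span of 0.19 over 3635 genes with at least 2 detected probes. Which splice forms each probe reads is not stated in the files.

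Fgfr2, the receptor whose splice forms answer either to Fgf7 and its relatives or to ligands such as Fgf2 and Fgf18, was 1197 before loading and 1039 at 24 h. The log2 ratio was -0.20 ± 0.20, and its size was 0.99 times its error. A second Fgfr2 probe was printed in 10 spots on each array, which lay between 624.3 and 692.0 with a median of 650.6 before loading, and between 506.5 and 645.4 with a median of 586.0 at 24 h. Each of these 10 spots was lower at 24 h, with log2 ratios from -0.35 to -0.05, a mean of -0.16 and an SD of 0.09 between spots. The spots share the RNA and the hybridisation of their array, so that they show the precision of the reading and are not replicates of the condition. The SD was close to the median of 0.09 over 268 probes printed in at least 8 spots, this probe included.

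**Figure D2:**
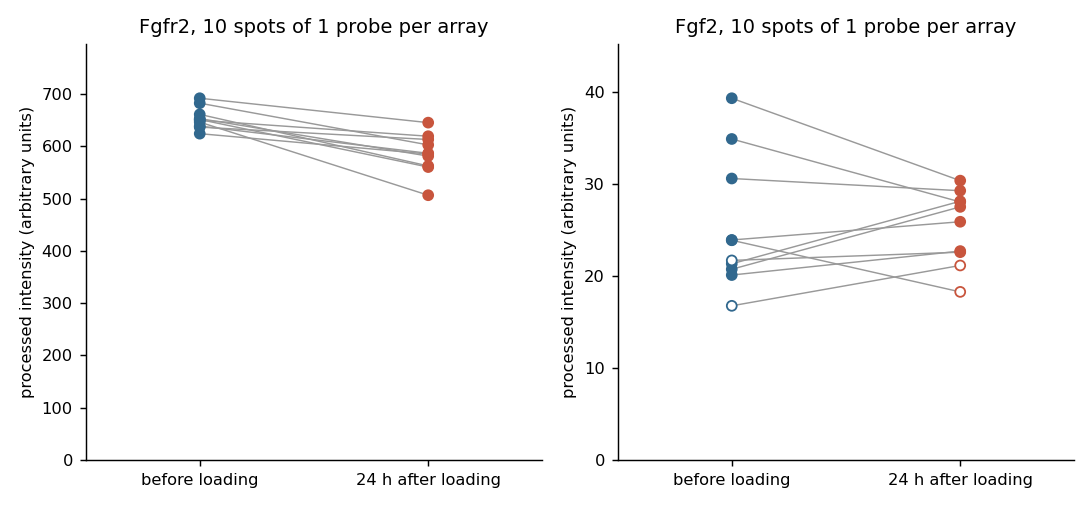
Intensity of the 10 spots of 1 Fgfr2 probe (left) and of the Fgf2 probe (right) before loading and 24 h after, with a line joining the same spot position on both arrays and open circles for spots not well above background. All 10 Fgfr2 lines point down, whereas 6 Fgf2 lines point up and 4 point down.

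The ligands were split as well, with Fgf7 on the higher side, Fgf18 on the lower side, and Fgf1 and Fgf2 close to no difference. Fgf7, also known as keratinocyte growth factor, went from 336.3 to 399.6. Its log2 ratio was 0.25 ± 0.21, 1.19-fold higher, with a range of 0.23 to 0.35 over the alternatives.

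Fgf18 had 2 probes for NM_008005. The brighter went from 335.4 to 275.4, a log2 ratio of -0.28 ± 0.21, and the dimmer from 103.9 to 70.6, a log2 ratio of -0.56 ± 0.23. Both probes were lower at 24 h, by 1.22-fold and 1.47-fold. The dimmer probe's ratio was 2.47 times its error, the largest multiple among the 13 detected probes, and 10.7% of detected genes differed by more. The probes differed by 0.27, and the gene's ratio lay between -0.42 and -0.19 over the alternatives.

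Fgf1, which binds all FGF receptors, was dim, at 50.9 before loading and 55.4 at 24 h. The log2 ratio of 0.12 ± 0.27 was under its error. Its second probe was not above background on either array, at 4.68 and 4.94.

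Fgf2, the basic fibroblast growth factor stored in the matrix around chondrocytes, had 1 probe in 10 spots, and 8 of the 10 were well above background on each array. The spots lay between 16.8 and 39.3 with a median of 22.8 before loading, and between 18.3 and 30.4 with a median of 26.7 at 24 h. The mean log2 ratio was 0.04 with an SD of 0.31 between spots, 6 spots being higher and 4 lower. At least 1 of these spots had 3 neighbours within 100 µm that were more than 2-fold lower. The mean ratio was under its within-array error of 0.41, and it turned to -0.02 with the normexp background correction. No direction was therefore read for Fgf2. Probes this dim varied more in general, with a median SD of 0.35 over 16 probes under an intensity of 50, the Fgf2 probe included.

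The 2 Sprouty genes lay at the edge of detection, each well above background on 1 array only and in opposite directions. Spry2 was 27.5 before loading and 18.2 at 24 h, where it was not well above background, a ratio of 1.51-fold lower. Spry4 was 14.8 and not well above background before loading, and was 23.6 at 24 h. Set against the lowest intensity well above background before loading, 17.3, it was 1.37-fold higher. These folds set the brighter value against the higher of the dim probe's own intensity and the lowest intensity well above background on that array. They are not lower bounds. Spots above that lowest intensity could still be not well above background, as an Fgf2 spot was at 21.7 before loading. The folds also leave out the within-array errors of 0.45 and 0.46. The ratios on the log2 scale, -0.59 and 0.67, were 1.33 and 1.47 times those errors.

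**Figure D3:**
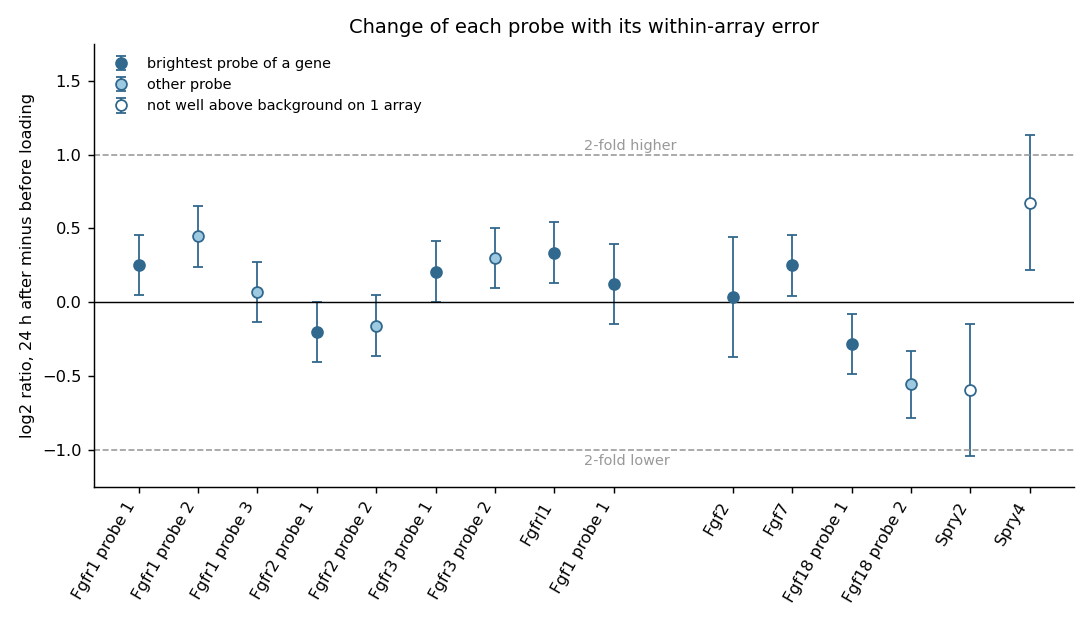
Log2 ratio of each probe with its within-array error as bars, without the Fgf1 probe that was below background on both arrays. Dark circles are the probe that stands for its gene, light circles the other detected probes and open circles the Sprouty genes. The detected probes of Fgfr1, Fgfr3 and Fgfrl1 lie above 0, those of Fgfr2 and Fgf18 below 0, and none reaches the dashed 2-fold lines.

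Over all 13 detected probes, 9 were higher and 4 lower at 24 h, and 0 were past 1.5-fold. By the brightest probe, 47.6% of all detected genes were higher, 3.65% were past 1.5-fold higher and 5.84% past 1.5-fold lower. In each of the 4 genes with more than 1 detected probe, Fgfr1, Fgfr2, Fgfr3 and Fgf18, the probes were on the same side of 0, also under every scaling tried. Probes of 1 gene read the same RNA, and how often they share a side over all genes was not tested. Taking the brightest probes, 5 of 8 genes had a ratio larger than their within-array error and 0 of 8 had one larger than 2 errors, against 42.8% and 16.4% of all detected genes. Of the 8, 4 lay above the 75th percentile of all detected genes, 0.16, and 2 below the 25th, -0.20, while 0 lay outside the range from the 5th percentile, -0.63, to the 95th, 0.51. Fgfr2 and Fgf18 are the 2 below, and Fgfr1, Fgfr3, Fgfrl1 and Fgf7 the 4 above.

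**Figure D4:**
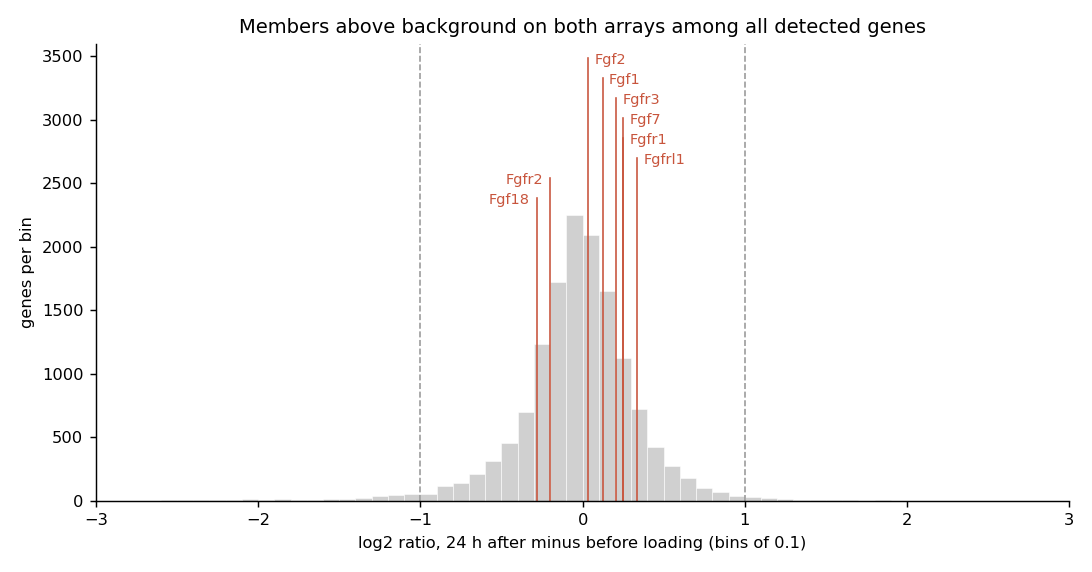
Histogram of the log2 ratio of 14231 detected genes in bins of 0.1, with the 8 detected members as red lines, whose heights serve only to place the names, and dashed lines at 2-fold. The members lie between -0.28 and 0.34, inside the bulk of the distribution and clear of both dashed lines.

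The rest of the FGF pathway was read from lists of 74 genes by role, including the members. Of these, 53 were detected, 45 of them not members. Past 2-fold were 0 of the 53 in either direction, against 0.668% of all detected genes higher and 1.83% lower. Their median log2 ratio was 0.03, with 28 above 0 and 25 below. Past 1.5-fold there were 0 higher, against 3.65% of all detected genes, and 6 lower, against 5.84%. The 6 were Fos, Fgfbp1, Spry3, Sos1, Egr1 and Fgf21.

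Among the ligands, 5 of 15 paracrine FGFs were detected, the 4 members and Fgf8, which stayed at 54.4 and 54.6, a log2 ratio of 0.01 ± 0.25. The other 2 Fgf8 probes were not above background. The endocrine ligands signal at a distance through Klotho co-receptors. Of these, Fgf21 went from 5115 to 3405, a log2 ratio of -0.59 ± 0.20. Fgf23 was 21175 and 21064 on its bright probe, a log2 ratio of -0.01 ± 0.20, but its other probe for the same transcript was below background on both arrays, at 4.13 and 4.36, so that its detection rests on 1 of 2 probes. Whether the bright probe reads Fgf23 alone was not tested. Fgf15 was not detected. Of the intracellular FGF homologous factors, which act on ion channels and not on FGF receptors, Fgf11 had a log2 ratio of -0.34 ± 0.23, Fgf14 of -0.20 ± 0.24 and Fgf13 of 0.26 ± 0.27.

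The remaining kinase receptor, Fgfr4, went from 385.9 to 344.8, a log2 ratio of -0.16 ± 0.21, whereas its dimmer probe went from 85.0 to 91.8, a ratio of 0.11 ± 0.23. The probes thus disagreed in sign, each within its error. The co-receptors Kl and Klb were below background on both arrays. The carriers that release FGFs from the matrix were both lower, Fgfbp1 from 46.4 to 25.1 with a log2 ratio of -0.89 ± 0.35, and Fgfbp3 from 301.2 to 225.2 with a ratio of -0.42 ± 0.21.

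Of 22 genes that relay the receptor signal, 20 were detected, with 15 above 0, 5 below and a median of 0.10. Among all detected genes 47.6% were above 0, with a median of -0.01. That median of 0.10 lies under the median within-array error of 0.20. On the higher side, the kinase Braf went from 993.5 to 1378, a log2 ratio of 0.47 ± 0.20. That probe had 3 spots within 100 µm that were more than 2-fold lower at 24 h. The dimmer Braf probe for the same transcript went from 182.6 to 193.1, a ratio of 0.08 ± 0.21, under its error. The lowest were the exchange factor Sos1, from 39.0 to 23.6 with -0.72 ± 0.39, and the kinase Map2k1, from 2584 to 2238 with -0.21 ± 0.20. The adaptor Frs2, which links FGF receptors to Ras, went from 6725 to 7041, a ratio of 0.07 ± 0.20. Over the scalings, 15 or 16 of the 20 were above 0.

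The feedback inhibitors, a list of 13 that includes Spry2 and Spry4, showed no common side. Of these, 8 were detected, Spry2 and Spry4 not among them, 4 above 0 and 4 below, with a median of 0.11. The highest were Spry1, from 86.4 to 118.8 with a log2 ratio of 0.46 ± 0.22, and the ubiquitin ligase Cbl, from 194.6 to 248.8 with 0.36 ± 0.21. The lowest were Spry3, from 43.2 to 25.8 with -0.75 ± 0.36, and Dusp6, the phosphatase that inactivates ERK, from 1020 to 696.6 with -0.55 ± 0.20. The 4 Sprouty genes thus gave higher values for Spry1 and Spry4 and lower ones for Spry2 and Spry3.

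Of 8 genes that FGF signalling is known to switch on in many cells, Fos and Egr1 were past 1.5-fold lower. Among all detected genes 5.84% were past 1.5-fold lower. Past 2-fold the count was 0 of 8, against 0.668% of all detected genes higher and 1.83% lower. All 8 were detected, 7 below 0 and 1 above, with a median of -0.24, where 7455 of all 14231 detected genes were below 0. Over the scalings 5 to 7 were below 0. Fos, an immediate early transcription factor, went from 183.1 to 92.8 with a log2 ratio of -0.98 ± 0.22, and Egr1, another, from 1870 to 1226 with -0.61 ± 0.20. Etv1 was the highest, from 214.2 to 267.7 with 0.32 ± 0.21, and the related Etv4 next, from 210.7 to 205.8 with -0.03 ± 0.21. The other 4 were Phlda1 at -0.36, Myc at -0.34, Etv5 at -0.15 and Ccnd1 at -0.04. Phlda1 had 3 spots within 100 µm that were more than 2-fold lower. The ratios of Etv4, Etv5 and Ccnd1 were under their within-array errors. Many stimuli besides FGFs act on Fos, Egr1 and Myc, and which stimulus their values answer to was not tested.

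**Figure D5:**
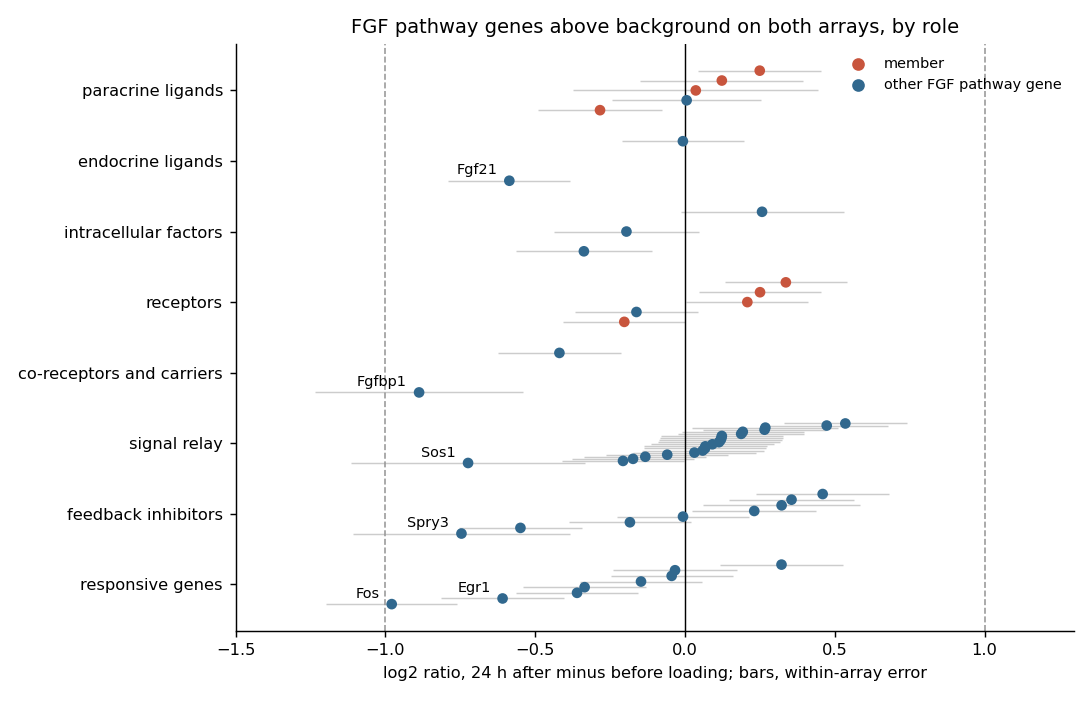
Log2 ratio of the 53 detected FGF pathway genes by role, with the within-array error as bars, members in red and other genes in blue. Genes past 1.5-fold are named, all 6 on the lower side, and none reaches the dashed 2-fold lines.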

How the data were processed

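RNA from 1 culture before loading and 1 at 24 h was hybridised to 1 one-colour array each. The authors deposited the background-subtracted intensity of each spot from Feature Extraction 10.10.1.1, not normalized between arrays, with the software's error and flags. The array design was annotated on mm9. Outlier-flagged spots (255) were left out, log2 intensities of spots of 1 probe were averaged over 55678 probes, and each array's 75th percentile was subtracted. Transcript accessions, without versions, were named through a RefSeq table of GRCm38.p6 (27235 probes), and the brightest probe stood for a gene. A probe was detected when over 50% of its spots were well above background on both arrays. The members and lists were chosen with earlier results of these data known. Named were all members, pathway genes past 2-fold (0), the 2 highest and 2 lowest of each role (some are not reported here), and further members of a role or count of at most 5. The other 4 responsive genes and Frs2 were chosen after their values were seen. The counting of calls was tested on simulated data, which is no test between the time points. Alternatives (13) used limma 3.58.1 in R 4.3.3 and numpy 2.4.6 and pandas 2.3.3 in Python 3.11.15. The number of arrays limits the precision.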

Additional observations from a re-analysis of the deposited data

How the results depend on the processing

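The counts of members past 2-fold stayed at 0 in both directions under all 13 alternatives. Asking for 2-fold by over 2 errors could only lower a count. All 92 values of single members moved by less than their within-array error. The 2 settings that change only the background filter cannot alter a member's ratio, and Spry2 and Spry4 had values under those 2 only. The median log2 ratio of the detected members ranged from 0.09 with normexp background correction to 0.26 with scaling to the median. The normexp correction was run on the median spot signal, so that signal and correction both changed. Scaling to the median moved the median of all genes by 0.098. The count of FGF pathway genes past 2-fold lower was 6 at 1.5-fold and 1 with no filter on dim probes, which was Fgf9, below background on both arrays. Over all detected genes, 95 were past 2-fold higher and 260 lower. These counts became 520 and 831 at 1.5-fold, 23 and 95 where genes had to exceed 2-fold by over 2 errors, 38 and 117 with normexp, 192 and 507 for genes above background on at least 1 array, and 492 and 983 with no filter. Of the 89 counts and medians under alternatives, 12, given above, were classed as moved and 77 were not. The 77 include the all-gene counts with scaling to the median, which became 130 higher and 205 lower. No paired analysis was possible because each of the time points has a single array. Intensities near the lowest one well above background, 17.3 and 17.8, limit what can be read for Fgf2, Spry2 and Spry4.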
